A study of Homo sapiens with 15 samples.

Results

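The 47 genes described here are interferon-stimulated effector genes, a list of gene symbols that runs from the MX and OAS antiviral enzymes to the IFIT, IFITM, ISG15 and PARP groups. The list was chosen by the function of the gene products, but with earlier results of these data known. The counts below may therefore depend on that choice. Of the 47 genes, 45 had array features that name 1 gene, among 18377 genes measured. STAT2 was not analysed here, and GBP1 could only be read from a feature that it shares with GBP3 and GBP1P1. Type I and type III interferons are secreted proteins that cells release when their RNA or DNA sensors detect foreign nucleic acid. Their receptors signal through JAK kinases to ISGF3, a transcription factor complex that includes STAT2 and IRF9 and binds the interferon-stimulated response element (ISRE) in the promoters of such genes. The products degrade viral RNA, block translation of viral transcripts, hold virus particles at membranes or modify other proteins, and tumour cell lines differ widely in how much of this program they run without infection.

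RNA came from PC3 cells, a prostate cancer line from a bone metastasis, and from DU145 cells, a prostate cancer line from a brain metastasis. Cells of both lines stayed untransfected or received, by reverse transfection with Lipofectamine 2000, 20 nM of a mimic of miR-224, of miR-452 or of the sequence labelled Scrambled no. 2. Fresh medium followed at 6 h and RNA was extracted at 48 h, so the scrambled and microRNA groups share the lipid and a synthetic RNA, and the untransfected group had neither. The study is titled for hypermethylation of the GABRE gene with its microRNAs, and each mimic supplies 1 of the pair. Each group had 2 Affymetrix Human Gene 1.0 ST arrays, named here by the letters of their labels (a, b or c), except the DU145 scrambled group with 1, since the submitters dropped its other array for poor performance. The labels do not say whether the 2 arrays of a group were separate cultures, so p-values measure the spread between these arrays. RNA of whole cultures cannot tell a lower level in every cell from fewer cells with the transcript.

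The set was read against the sequences of the mimics and of the promoters where the ISRE would lie. The labels name miR-224 and miR-452 without an arm, and the 5p products are shown to set out their seeds (bases 2 to 8, in capitals), which pair with target transcripts and differ between these microRNAs. Both lie on the minus strand of chromosome X in RefSeq on GRCh38.p14, at chrX:151958628-151958652 for miR-224 and chrX:151959678-151959699 for miR-452.
hsa-miR-224-5p: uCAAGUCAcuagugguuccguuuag
hsa-miR-452-5p: aACUGUUUgcagaggaaacuga

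The core of the ISRE, GAAA then any 2 bases then GAAA, was searched on both strands in RefSeq promoter windows of 300 bases, 250 before the gene start and 50 after it (GRCh38.p14). Of 38 genes of the set with a window, 27 held the core, in 32 of 52 windows, whereas it was present in 3.57% of all 35116 windows and in 4.38% of 27305 genes. The windows below show IFIT1, SAMD9, IFITM1 and IFI44L, whose levels carry the results that follow, and BST2, which holds the core and did not pass in PC3 or DU145 with either mimic. The BST2 signal was low, at percentile 4.3 of all genes in untransfected PC3 and 7.2 in untransfected DU145 cells, where a small change could be missed. The capitals mark the core, read on the gene's strand and seen as TTTC, 2 bases and TTTC where the match lies on the other strand. In BST2 a pair of matches overlap. The windows are chr10:89392373-89392672 for IFIT1 (plus strand), chr7:93117930-93118229 for SAMD9 (minus strand), chr11:313790-314089 for IFITM1 (plus strand), chr1:78620198-78620497 for IFI44L (plus strand) and chr19:17405581-17405880 for BST2 (minus strand).
IFIT1: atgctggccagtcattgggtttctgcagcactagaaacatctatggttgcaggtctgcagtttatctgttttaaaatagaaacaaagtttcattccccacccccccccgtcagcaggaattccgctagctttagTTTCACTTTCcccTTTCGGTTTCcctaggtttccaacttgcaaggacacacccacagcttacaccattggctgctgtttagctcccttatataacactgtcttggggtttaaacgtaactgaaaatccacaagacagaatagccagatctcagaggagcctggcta
SAMD9: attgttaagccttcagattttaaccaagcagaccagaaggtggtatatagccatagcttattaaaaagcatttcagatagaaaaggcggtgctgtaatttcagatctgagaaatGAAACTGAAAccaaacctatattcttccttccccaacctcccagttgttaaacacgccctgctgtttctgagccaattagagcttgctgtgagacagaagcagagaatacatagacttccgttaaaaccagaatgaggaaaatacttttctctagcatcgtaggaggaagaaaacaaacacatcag
IFITM1: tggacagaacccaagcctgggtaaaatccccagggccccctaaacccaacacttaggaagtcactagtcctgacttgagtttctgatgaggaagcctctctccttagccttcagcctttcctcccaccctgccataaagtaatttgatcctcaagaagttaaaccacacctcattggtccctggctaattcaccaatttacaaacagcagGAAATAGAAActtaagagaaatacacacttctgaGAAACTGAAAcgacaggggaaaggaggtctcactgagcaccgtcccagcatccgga
IFI44L: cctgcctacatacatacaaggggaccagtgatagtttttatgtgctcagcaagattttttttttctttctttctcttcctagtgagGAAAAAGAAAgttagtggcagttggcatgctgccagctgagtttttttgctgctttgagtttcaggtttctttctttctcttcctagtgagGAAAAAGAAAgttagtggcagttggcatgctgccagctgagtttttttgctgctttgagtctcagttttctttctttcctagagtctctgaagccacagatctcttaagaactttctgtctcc
BST2: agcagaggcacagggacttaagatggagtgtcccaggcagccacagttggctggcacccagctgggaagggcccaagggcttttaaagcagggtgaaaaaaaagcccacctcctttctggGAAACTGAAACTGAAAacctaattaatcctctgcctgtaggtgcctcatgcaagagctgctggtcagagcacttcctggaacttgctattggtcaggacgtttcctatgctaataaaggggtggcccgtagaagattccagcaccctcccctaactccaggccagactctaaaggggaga

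In PC3 cells, 27 of the 45 genes rose with the miR-452 mimic against the scrambled mimic and 0 fell, where 2.89% of all genes rose and 2.33% fell (5.22% together). The median of the set was 0.56 and that of all genes 0.01. Here and below a difference is in log2 units, ± its standard error from limma, and passing means an adjusted p below 0.05 by Benjamini-Hochberg over all 18377 genes. At an unadjusted p under 0.05, 34 were higher and 1 lower, and 12 rose by more than 2-fold. For 36 of the 45 genes both miR-452 arrays lay above all 6 other PC3 arrays, an arrangement found for 8.41% of all genes. The pattern was uneven within the set, since the OAS, MX, SAMD9 and PARP groups moved almost as a whole while most of the ISG15 conjugation system and most membrane factors did not pass.

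**Figure D1:**
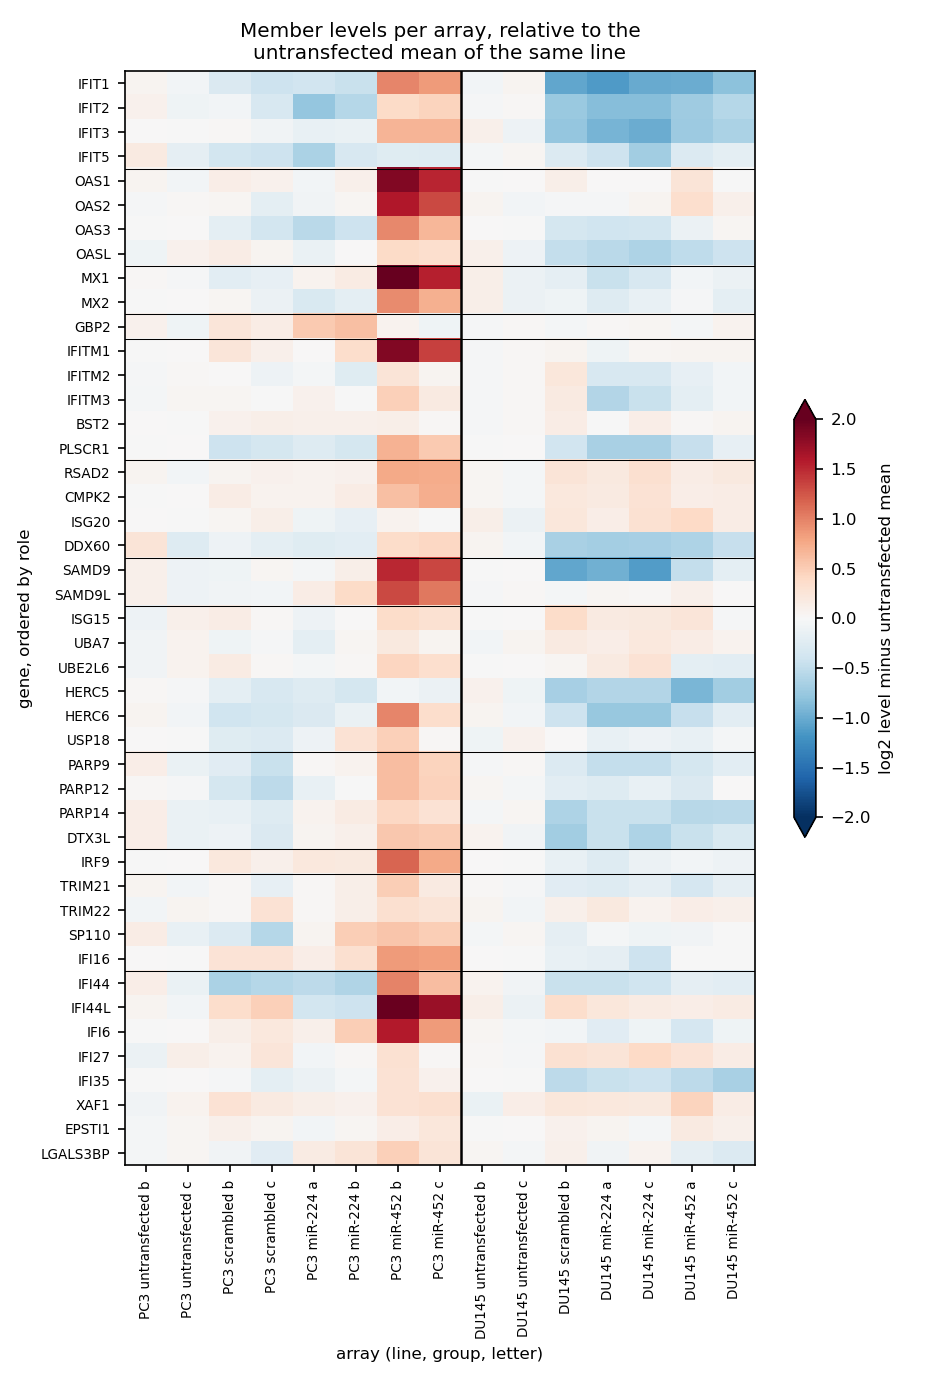
Heat map of the 45 measured genes, 1 row per gene ordered by role and 1 column per array, coloured by the log2 level minus the mean of the untransfected arrays of the same line (red higher, blue lower). The red columns are the 2 PC3 miR-452 arrays, and the blue rows on the right are genes such as IFIT1 and DDX60 on all 5 transfected DU145 arrays. SAMD9 is paler on the DU145 miR-452 arrays than on the other transfected DU145 arrays.

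The MX proteins are dynamin-like GTPases that trap viral nucleoproteins. MX1 read 7.37 and 7.32 on the untransfected PC3 arrays, 7.13 and 7.18 on the scrambled arrays, 7.41 and 7.51 with miR-224, and 9.44 and 8.90 with miR-452. The miR-452 arrays stood clear of the other 6, although they differed from each other by more than the arrays of any other PC3 group. Against the scrambled mimic this was 2.01 ± 0.14, or 4.04-fold (adjusted p = 3.58e-05). MX2, its nuclear relative that restricts retroviruses, read 6.52 and 6.53 untransfected, 6.56 and 6.41 with the scrambled mimic, 6.23 and 6.34 with miR-224, and 7.46 and 7.24 with miR-452. It rose by 0.87 ± 0.09 (adjusted p = 0.000316), again without overlap.

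The oligoadenylate synthetases OAS1, OAS2 and OAS3 make the messenger that activates RNase L when they bind double-stranded RNA, and OASL is a relative without that activity. OAS1 read 7.91 and 7.81 untransfected, 7.99 and 7.95 scrambled, 7.81 and 7.97 with miR-224, and 9.72 and 9.39 with miR-452. For OAS2 the levels were 8.36 and 8.42, 8.42 and 8.19, 8.32 and 8.42, and 9.99 and 9.70 in the same order. The 6 arrays without miR-452 lay within a narrow band for both genes, and the rises over scrambled were 1.58 ± 0.11 (3-fold) and 1.54 ± 0.11 (2.92-fold), each with adjusted p = 3.58e-05. OAS3 read 9.35 and 9.36 untransfected, 9.16 and 8.99 scrambled, 8.81 and 8.94 with miR-224, and 10.32 and 10.02 with miR-452, a rise of 1.09 ± 0.11 (adjusted p = 0.000147). OASL did not pass against the scrambled mimic (0.26 ± 0.09, adjusted p = 0.131), so 3 of the 4 rose.

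The IFIT proteins bind viral RNA by its 5′ end and block its translation. IFIT1 read 7.70 and 7.60 on the untransfected PC3 arrays, 7.36 and 7.24 with the scrambled mimic, 7.27 and 7.20 with miR-224, and 8.63 and 8.50 with miR-452. It rose by 1.27 ± 0.09, or 2.41-fold (adjusted p = 3.58e-05), and all 4 arrays of the scrambled and miR-224 groups lay below the untransfected ones. IFIT3, the partner that stabilises IFIT1, read 7.01 and 6.99, 7.03 and 6.93, 6.85 and 6.87, and 7.69 and 7.68 in the same order, a rise of 0.71 ± 0.08 (adjusted p = 0.000296). IFIT2 rose by 0.60 ± 0.11 (adjusted p = 0.0079). Its call was lost without miR-452 c. IFIT5 read 7.61 on both miR-452 arrays, between the untransfected arrays at 8.05 and 7.68 and the scrambled arrays at 7.49 and 7.46, and did not pass (0.14 ± 0.13).

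**Figure D2:**
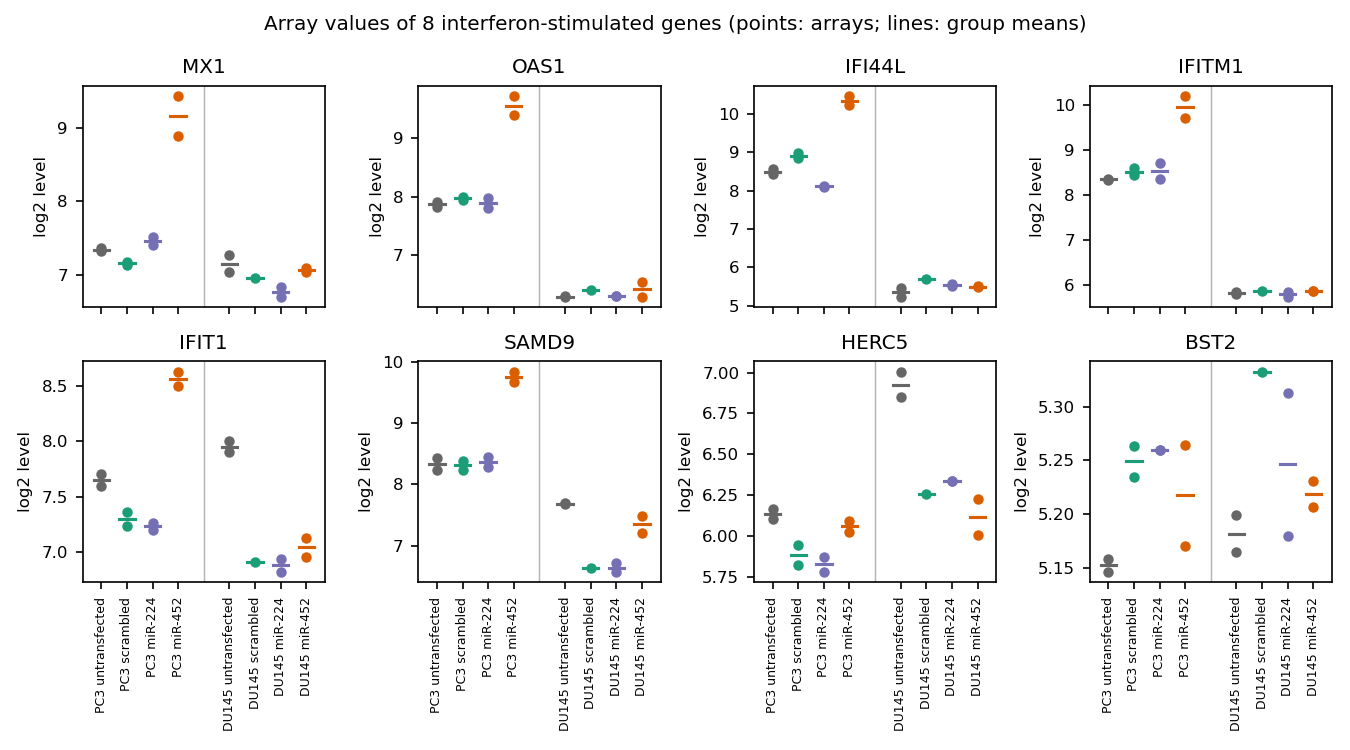
Array values of 8 genes, log2 level on the vertical axis (a different range in each panel) and group on the horizontal axis, with 1 point per array and a line at the group mean. MX1, OAS1, IFI44L, IFITM1, IFIT1 and SAMD9 stand higher on both PC3 miR-452 arrays than on the other PC3 arrays, HERC5 is high on the untransfected arrays of DU145, and the points of BST2 span 5.15 to 5.33.

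The SAMD9 family holds back poxviruses and sits side by side on chromosome 7. SAMD9 read 8.43 and 8.24 untransfected, 8.24 and 8.38 scrambled, 8.29 and 8.45 with miR-224, and 9.84 and 9.67 with miR-452. SAMD9L read 7.34 and 7.15, 7.17 and 7.19, 7.40 and 7.62, and 8.57 and 8.30 in that order. Neither gene's miR-452 arrays overlapped with any other PC3 array, and both rose, by 1.45 ± 0.10 (2.72-fold, adjusted p = 3.58e-05) and 1.25 ± 0.11 (2.38-fold, adjusted p = 8.83e-05).

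Among membrane factors 2 of 5 rose. IFITM1, which blocks fusion of viruses at the cell surface, read 8.35 and 8.36 untransfected, 8.60 and 8.45 scrambled, 8.36 and 8.71 with miR-224, and 10.20 and 9.72 with miR-452. PLSCR1, a lipid scramblase with antiviral activity, read 8.71 and 8.73, 8.30 and 8.37, 8.47 and 8.36, and 9.41 and 9.24. They rose by 1.44 ± 0.15 (2.71-fold, adjusted p = 0.000212) and 0.99 ± 0.09 (1.99-fold, adjusted p = 8.11e-05). IFITM2 and IFITM3, the endosomal members of the IFITM family, did not pass (0.21 ± 0.10 and 0.30 ± 0.10), with IFITM2 at 10.65 and 10.55 scrambled and 10.91 and 10.71 with miR-452. IFITM3 read 10.54 and 10.64 untransfected, 10.64 and 10.58 scrambled, 10.67 and 10.58 with miR-224, and 11.06 and 10.76 with miR-452. The sequences of the IFITM genes are near-identical in part, and how far their features share signal was not tested. BST2, or tetherin, which holds budding virus at the membrane, stood at -0.03 ± 0.08, with all 15 arrays between 5.15 and 5.33.

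IRF9, the DNA-binding subunit of ISGF3, read 7.67 and 7.56 with the scrambled mimic and 8.63 and 8.21 with miR-452, and rose by 0.81 ± 0.12 (adjusted p = 0.00183). It was the only ISGF3 subunit of the set with a feature of its own. All 4 genes of the PARP and DTX3L group, ADP-ribosyltransferases with the ubiquitin ligase partner of PARP9, rose. PARP12 read 8.19 and 8.15 untransfected, 7.82 and 7.64 scrambled, 8.03 and 8.17 with miR-224, and 8.79 and 8.63 with miR-452, a rise of 0.98 ± 0.09 (adjusted p = 0.000132). PARP9 (0.87 ± 0.11), DTX3L (0.72 ± 0.10) and PARP14 (0.55 ± 0.10) rose less. PARP9 and DTX3L are neighbours transcribed from a shared promoter region, so they are not separate readings of that region. The PARP14 call was lost without miR-452 b.

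Enzymes that act on nucleotides or RNA gave 3 rises of 4. RSAD2, or viperin, which makes a chain-terminating nucleotide, rose by 0.67 ± 0.08 (adjusted p = 0.00041) and its neighbour CMPK2, a nucleotide kinase, by 0.56 ± 0.08 (adjusted p = 0.00188). RSAD2 read 5.71 and 5.73 scrambled and 6.40 and 6.39 with miR-452, while CMPK2 read 7.68 and 7.60 against 8.14 and 8.26. DDX60, a helicase linked to RNA sensing, rose by 0.54 ± 0.13 (adjusted p = 0.0397), a call lost without any 1 of the scrambled or miR-452 arrays. ISG20, an exonuclease, stood at -0.05 ± 0.08.

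ISG15 is a ubiquitin-like protein that UBA7, UBE2L6 and HERC5 attach to other proteins and USP18 removes. Only HERC6, a relative of HERC5, passed among the 6 genes of this system (1.04 ± 0.15, adjusted p = 0.00243), with 7.68 and 7.05 on the miR-452 arrays against 6.30 and 6.35 with the scrambled mimic. ISG15 itself read 8.04 and 7.91 scrambled and 8.26 and 8.20 with miR-452 (0.25 ± 0.09, adjusted p = 0.156). Without passing, UBE2L6 stood at 0.30 ± 0.09, UBA7 at 0.18 ± 0.10, HERC5 at 0.17 ± 0.08 and USP18 at 0.51 ± 0.14 (adjusted p = 0.0688). A second feature, shared by USP18 and USP41P, was higher by 0.71 ± 0.09 (adjusted p = 0.00995 over all 28869 features), and the feature of GBP1, GBP3 and GBP1P1 by 0.67 ± 0.08 (adjusted p = 0.00971). Which gene of each pair or trio gave the signal cannot be told apart. GBP2, an interferon-induced GTPase, had 6.72 and 6.61 scrambled and 6.54 and 6.39 with miR-452 and did not pass (-0.20 ± 0.09).

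Of the other interferon-induced genes, 4 of 8 rose. IFI44L read 8.55 and 8.43 untransfected, 8.85 and 8.98 scrambled, 8.13 and 8.08 with miR-224, and 10.46 and 10.22 with miR-452. IFI44 read 6.97 and 6.69, 6.19 and 6.26, 6.31 and 6.23, and 7.82 and 7.45. They rose by 1.43 ± 0.10 (2.69-fold) and 1.41 ± 0.12 (2.66-fold), although the 2 neighbouring genes stood on opposite sides of the untransfected level with the scrambled mimic. IFI6, a mitochondrial and endoplasmic reticulum protein that inhibits apoptosis, read 8.59 and 8.59, 8.71 and 8.80, 8.69 and 9.08, and 10.18 and 9.44, a rise of 1.05 ± 0.19 (adjusted p = 0.00777) that was lost without scrambled b and under trend and robust moderation. LGALS3BP, a secreted glycoprotein, read 9.50 and 9.59, 9.47 and 9.32, 9.71 and 9.81, and 10.03 and 9.81, so its miR-452 c array equalled the higher miR-224 array to 2 decimals. Its rise of 0.52 ± 0.09 was lost without miR-452 b. IFI27 (0.01 ± 0.11), XAF1 (0.07 ± 0.08), EPSTI1 (0.10 ± 0.08) and IFI35 (0.30 ± 0.09) did not pass. In the TRIM and nuclear protein group, SP110 (0.95 ± 0.15) and the DNA sensor IFI16 (0.56 ± 0.08) rose, while TRIM21 (0.41 ± 0.11, adjusted p = 0.0558) and TRIM22 (0.13 ± 0.10) did not pass.

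Both other PC3 controls gave a like count for miR-452. Against untransfected cells 32 genes rose and 0 fell, where 8.12% of all genes rose and 14.1% fell, with a median of 0.52. IFI44L (1.85 ± 0.10, 3.6-fold), MX1 (1.82 ± 0.14) and OAS1 (1.69 ± 0.11) had the largest differences there. ISG15 (0.34 ± 0.09, adjusted p = 0.0237), OASL (0.36 ± 0.09, adjusted p = 0.017) and UBE2L6 (0.38 ± 0.09, adjusted p = 0.0109) passed against this control, though each of these calls was lost without untransfected b and without miR-452 b. The count of 32 became 20 without miR-452 b. Against miR-224, 27 rose and 1, GBP2, fell, where 5.99% of all genes rose and 12.5% fell. GBP2 read 6.99 and 7.07 with miR-224 and fell by 0.56 ± 0.09 (adjusted p = 0.00132). These comparisons share the miR-452 arrays, of which b read higher than c for 40 of the 45 genes (59.3% of all genes), by a median of 0.17 and by up to 0.74 for IFI6. Against the scrambled mimic the count stayed between 24 and 28 with each array left out in turn, and 22 of the 27 calls held without each array.

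**Figure D3:**
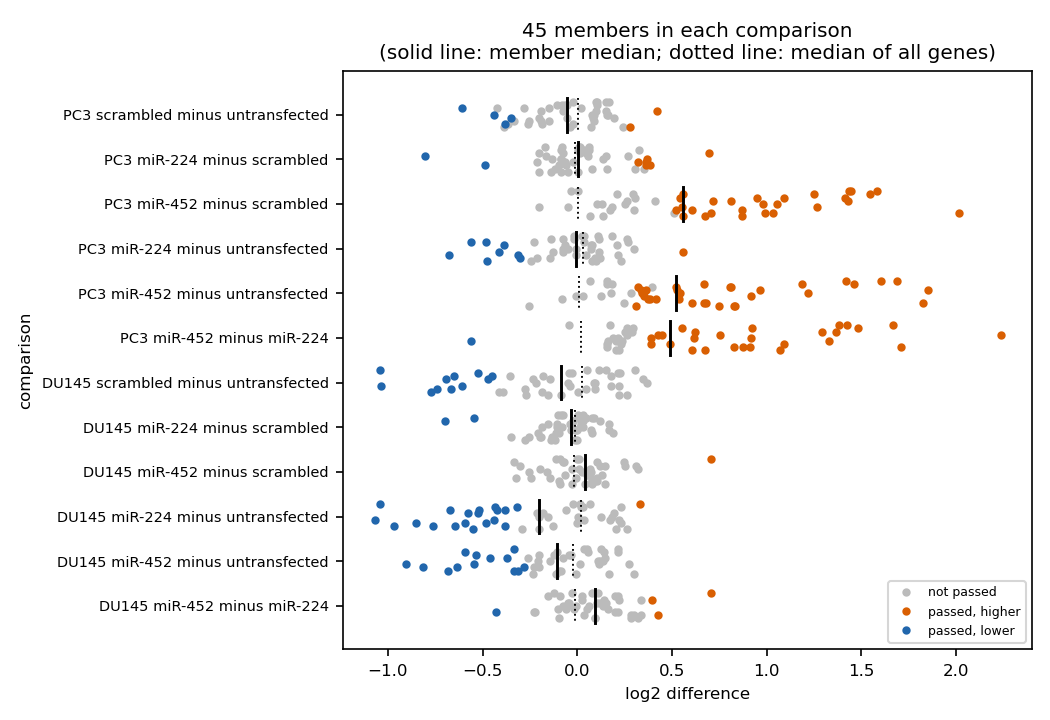
Log2 differences of the 45 genes (points) in 12 comparisons within a line, with orange and blue for genes that passed higher and lower, a solid bar at the median of the set and a dotted bar at the median of all genes. The comparisons of PC3 miR-452 lie to the right, with medians of 0.56, 0.52 and 0.49, and those of transfected with untransfected DU145 cells reach to the left, to -1.07 for IFIT1.

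The scrambled mimic itself moved these genes in PC3 about as often as it moved all genes. Against untransfected cells 2 were higher and 4 lower (4.44% and 8.89% of the set), where 3.32% of all genes were higher and 10.9% lower (14.2% together). IFI44 (-0.61 ± 0.12, adjusted p = 0.0117), PARP12 (-0.44 ± 0.09), PLSCR1 (-0.38 ± 0.09) and IFIT1 (-0.35 ± 0.09) fell, and IFI44L (0.42 ± 0.10) and IFI16 (0.28 ± 0.08) rose. The 6 calls became 0 without untransfected b and 0 without scrambled c. The median of the set was -0.05.

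Over the scrambled mimic, miR-224 moved these genes in PC3 about as often as it moved all genes. In that comparison 6 genes rose and 2 fell (13.3% and 4.44% of the set), where 12.1% of all genes rose and 4.65% fell (16.8% together). IFI44L fell by 0.81 ± 0.10 (adjusted p = 0.000372), the only 1 of the 8 calls that held without each array, and IFIT2 fell by 0.49 ± 0.11. SP110 (0.69 ± 0.15), PARP9 (0.38 ± 0.11), PARP12 (0.37 ± 0.09), LGALS3BP (0.36 ± 0.09), GBP2 (0.36 ± 0.09) and PARP14 (0.32 ± 0.10) rose. None of these 6 rises held without miR-224 b, and the count of 8 became 2 there and 2 without scrambled c. Against untransfected cells GBP2 rose (0.56 ± 0.09) and 8 genes fell, where 2.84% of all genes rose and 6.85% fell (9.69% together), among them IFIT2 (-0.68 ± 0.11), OAS3 (-0.48 ± 0.11), IFIT1 (-0.41 ± 0.09) and IFI44L (-0.39 ± 0.10). That count of 9 became 2 without untransfected b, 4 without miR-224 a and 4 without miR-224 b.

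In DU145 cells the genes that passed were mostly lower in transfected than in untransfected cells, and so were those among all genes. IFIT1, IFIT2, IFIT3, SAMD9, HERC5 and DDX60 were among the largest falls of the set. The genes that passed lower were 24.4%, 42.2% and 28.9% of the set with the scrambled, miR-224 and miR-452 mimics. On the scrambled array 11 of 45 were lower than in untransfected cells and 0 higher, where 9.22% of all genes were lower and 2.6% higher. At an unadjusted p under 0.05, 15 were lower and 4 higher. With miR-224 19 were lower and 1, IFI27 (0.33 ± 0.09), higher (15.5% and 5.44% of all genes, 21% together), and with miR-452 13 were lower and 0 higher (19.9% and 8.31%), with 17 and 3 at an unadjusted p under 0.05. The medians were -0.08, -0.20 and -0.11, and the 3 comparisons share the 2 untransfected arrays. Both untransfected arrays lay above the 5 others for 18 of the 45 genes, against 26.5% of all genes.

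IFIT1 read 7.90 and 8.0 on the untransfected DU145 arrays, 6.91 on the scrambled array, 6.82 and 6.94 with miR-224, and 6.95 and 7.13 with miR-452. IFIT3 read 7.43 and 7.24, 6.56, 6.40 and 6.34, and 6.60 and 6.70 in that order, and IFIT2 6.76 and 6.82, 6.05, 5.93 and 5.94, and 6.08 and 6.22. All 5 transfected arrays lay below both untransfected arrays for these genes. The differences of IFIT1 were -1.04 ± 0.12 with the scrambled mimic, -1.07 ± 0.10 with miR-224 (adjusted p = 0.000465) and -0.91 ± 0.10 with miR-452 (adjusted p = 0.00141). IFIT3 fell by 0.77 ± 0.12, 0.97 ± 0.10 and 0.68 ± 0.10 and IFIT2 by 0.74 ± 0.11, 0.85 ± 0.09 and 0.64 ± 0.09 in that order.

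HERC5, the main ISG15 ligase, read 7.01 and 6.85 untransfected, 6.26 on the scrambled array, 6.34 and 6.34 with miR-224, and 6.01 and 6.22 with miR-452, and fell by 0.67 ± 0.12, 0.59 ± 0.10 and 0.81 ± 0.10. HERC6 read 7.58 and 7.46, 7.11, 6.76 and 6.76, and 7.06 and 7.31. It fell by 0.76 ± 0.10 with miR-224 and 0.34 ± 0.10 with miR-452, and did not pass on the scrambled array. DDX60 read 6.16 and 6.03, 5.44, 5.42 and 5.42, and 5.48 and 5.64, a fall of 0.65 ± 0.11, 0.67 ± 0.09 and 0.53 ± 0.09. ISG15 read 6.97 and 6.97 untransfected and between 6.95 and 7.34 on the transfected arrays, and passed in 0 of the DU145 comparisons. ISG15 thus passed nowhere in this line, whereas its ligase HERC5 fell.

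IFI35, a partner of interferon-induced signalling proteins, read 7.82 and 7.80 untransfected, 7.29 on the scrambled array, 7.36 and 7.39 with miR-224, and 7.28 and 7.16 with miR-452, and fell by 0.52 ± 0.11, 0.44 ± 0.09 and 0.59 ± 0.09. PARP14 read 8.0 and 8.08, 7.43, 7.60 and 7.60, and 7.48 and 7.51, with differences of -0.61 ± 0.10, -0.44 ± 0.08 and -0.54 ± 0.08. PLSCR1 read 7.95 and 7.97, 7.57, 7.31 and 7.31, and 7.50 and 7.79. It fell by 0.65 ± 0.10 with miR-224 and by 0.31 ± 0.10 with miR-452 (adjusted p = 0.0498). Of the OAS and MX genes that rose in PC3, OAS1 (0.13 ± 0.10), OAS2 (0.22 ± 0.10), MX1 (-0.09 ± 0.10) and MX2 (-0.11 ± 0.11) did not pass with miR-452 against untransfected cells.

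These DU145 counts rest on few arrays. Without either untransfected array, which leaves 1 array against 1, the 11 calls on the scrambled array became 0, and they became 18 without either miR-452 array. The 20 calls with miR-224 became 7 and 10 without untransfected b or c and 11 without miR-224 c. The 13 with miR-452 became 6 and 8 without untransfected b or c, 8 without miR-452 a and 22 without miR-452 c. Only 7 and 6 of these calls held without each array, and for miR-452 the 6 were IFIT1, HERC5, IFIT2, IFIT3, IFI35 and PARP14.

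SAMD9 stood apart in DU145. It read 7.68 and 7.69 untransfected, 6.64 on the scrambled array, 6.72 and 6.57 with miR-224, and 7.21 and 7.49 with miR-452. The miR-452 arrays lay between the untransfected arrays and the other transfected arrays without overlap. Against the scrambled array it rose by 0.71 ± 0.13 (adjusted p = 0.0309), the only 1 of 45 genes to pass with miR-452, where 0.577% of all genes were higher and 1.52% lower (2.1% together). At an unadjusted p under 0.05, 4 were higher and 4 lower. Against miR-224 it rose by 0.71 ± 0.11 (adjusted p = 0.00629), and against untransfected cells it was lower by 0.33 on the log2 scale (-0.33 ± 0.11, adjusted p = 0.0469). The call against the scrambled array was lost without either untransfected array, and that against miR-224 without miR-224 c. SAMD9L read between 5.27 and 5.41 on all 7 DU145 arrays.

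With miR-224 in DU145, IFITM3 and IFITM2 fell against the scrambled array, where 0.631% of all genes rose and 1.31% fell (1.94% together). IFITM3 read 8.33 and 8.37 untransfected, 8.53 scrambled, 7.76 and 7.90 with miR-224, and 8.16 and 8.30 with miR-452. IFITM2 read 9.68 and 9.75, 9.94, 9.39 and 9.40, and 9.55 and 9.67. The single scrambled array was the highest of the 7 for both genes, and the falls of 0.70 ± 0.11 (adjusted p = 0.0188) and 0.55 ± 0.11 (adjusted p = 0.0336) were 0.52 ± 0.09 and 0.32 ± 0.09 against untransfected cells. Both calls against the scrambled array were lost without either miR-224 array, and that of IFITM2 also without either untransfected array. IFITM1 read between 5.75 and 5.88 on all DU145 arrays. Between the mimics, 3 genes were higher with miR-452 and 1 lower (2.38% and 3.53% of all genes), SAMD9, HERC6 (0.43 ± 0.10) and IFITM3 (0.40 ± 0.09) against UBE2L6 (-0.43 ± 0.08). The 4 became 1 without either untransfected array or miR-224 a, 0 without miR-224 c and 2 without miR-452 c. IFI6, which read 8.62 and 8.53 untransfected, 8.52 scrambled, 8.35 and 8.49 with miR-224 and 8.24 and 8.49 with miR-452, and PARP12, at 8.61 and 8.53, 8.35, 8.30 and 8.42, and 8.27 and 8.58, passed in 0 of the DU145 comparisons.

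The change with miR-452 itself differed between the lines. In a fit of all 15 arrays, the change over the scrambled mimic was higher in PC3 than in DU145 for 17 of 45 genes and lower for 0, where 0.473% of all genes were higher and 0.147% lower (0.62% together). MX1 differed by 1.91 ± 0.21 (adjusted p = 0.00142), from 2.01 in PC3 and 0.10 in DU145. IFI44L differed by 1.63 ± 0.16 (1.43 and -0.20), OAS1 by 1.57 ± 0.17 (1.58 and 0.01) and IFITM1 by 1.44 ± 0.21 (1.44 and 0.00). For SAMD9, which rose in both lines, the difference of 0.74 ± 0.17 did not pass (adjusted p = 0.0764), nor did those of IRF9 (0.74 ± 0.17) and IFI6 (1.21 ± 0.28). The count of 17 became 10 without PC3 scrambled c and 8 without PC3 miR-452 b, and with the replicate letters as a block 0 passed. In untransfected DU145 cells some of the 17 were low. RSAD2, SAMD9L, IFI44L, IFI44, OAS2 and IFITM1 stood at percentiles 7.8, 10.3, 11.3, 11.6, 18 and 24 of all genes. The rest ran from 27 for MX2 to 80.5 for PARP12. Whether a low signal hid changes in DU145 was not tested. The lines were normalized separately, so levels are not compared between them.

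**Figure D4:**
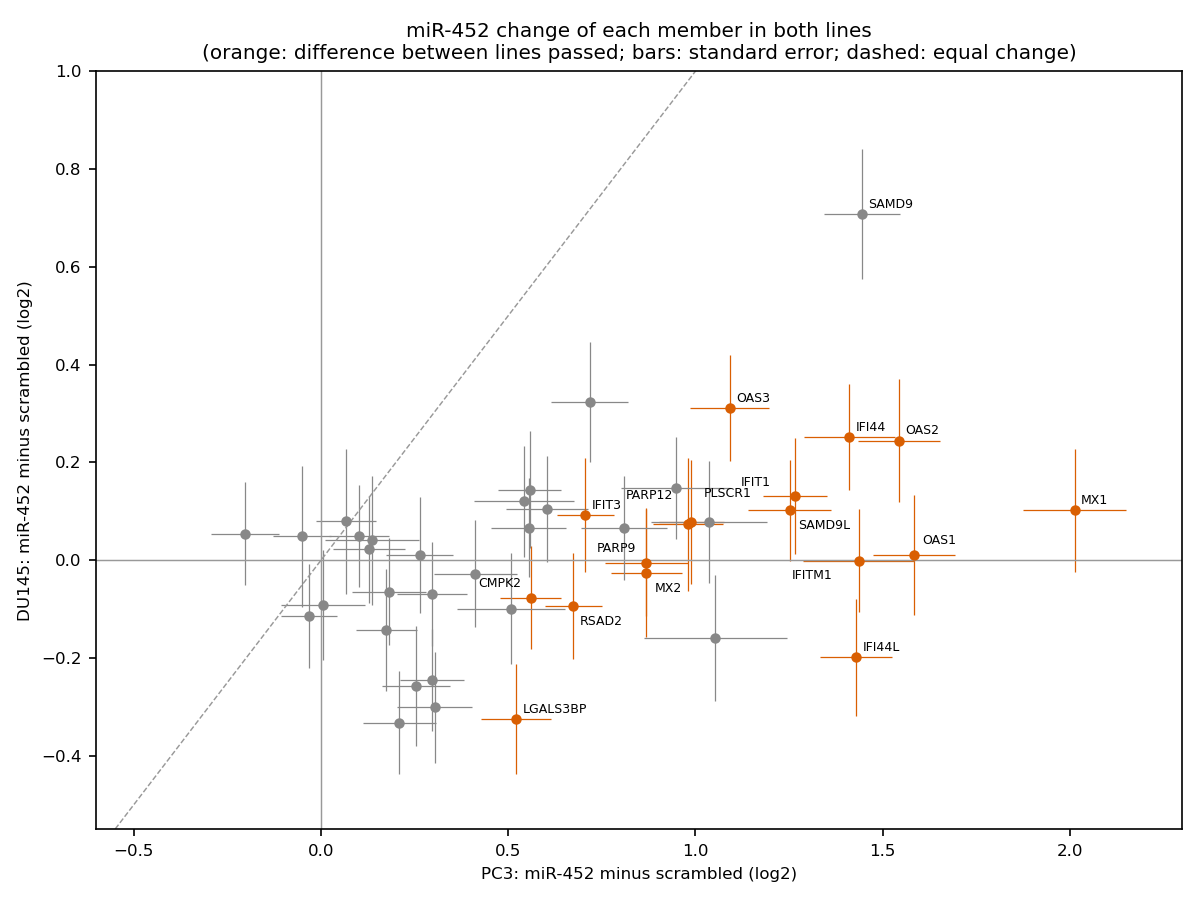
Change with miR-452 over the scrambled mimic in PC3 (horizontal) and DU145 (vertical), in log2 units with standard errors, 1 point per gene. The 17 orange points, whose difference between lines passed, lie between -0.33 and 0.31 on the DU145 axis and between 0.52 and 2.01 on the PC3 axis, and SAMD9 at 1.45 and 0.71 is the highest point.

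Against untransfected cells, the difference between lines passed for 31 genes, all higher in PC3, where 2.2% of all genes were higher and 0.68% lower (2.88% together), and with the replicate letters as a block for 9. For 10 of them the gene rose in PC3 and fell in DU145. These were IFIT1 (0.92 and -0.91), IFIT2 (0.41 and -0.64), IFIT3 (0.68 and -0.68), OASL (0.36 and -0.46), PLSCR1 (0.61 and -0.31), SAMD9 (1.42 and -0.33), HERC6 (0.67 and -0.34), PARP9 (0.53 and -0.28), PARP14 (0.35 and -0.54) and DTX3L (0.53 and -0.37). The same difference for scrambled against untransfected cells, a contrast added after the values had been seen, passed for 2 genes, SAMD9 (1.02 ± 0.17, adjusted p = 0.0351) and IFIT3 (0.75 ± 0.13, adjusted p = 0.0353), where 0.158% of all genes were higher and 0.049% lower. Neither call held without each array in turn. Against miR-224 the difference was higher in PC3 for 20 genes and lower for 1, GBP2 (-0.54 ± 0.12), where 2.31% of all genes were higher and 3.41% lower, and 9 passed with the letters as a block.

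The promoter core was found in genes that rose and in genes that did not pass. It was present in 17 of the 24 genes with a window that rose in PC3 with miR-452 over scrambled and in 9 of the 12 that did not pass. Of those 9, BST2 and EPSTI1 were low in untransfected PC3 cells, at percentiles 4.3 and 9. The others ran from 22.5 for HERC5 to 95.3 for IFITM3. The IFIT1 window above holds matches that begin 116 and 103 bases before the gene start, IFITM1 matches 40 and 6 bases before it, and SAMD9 a match 136 bases before it. In IFI44L both matches have the same 10 letters, 164 and 73 bases before the start. OAS1, SAMD9L and IRF9 rose and hold no match to these letters in their windows, and ISG15, with matches 113 and 107 bases before its start, did not pass. A match is a description of letters, and binding was not measured.

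**Figure D5:**
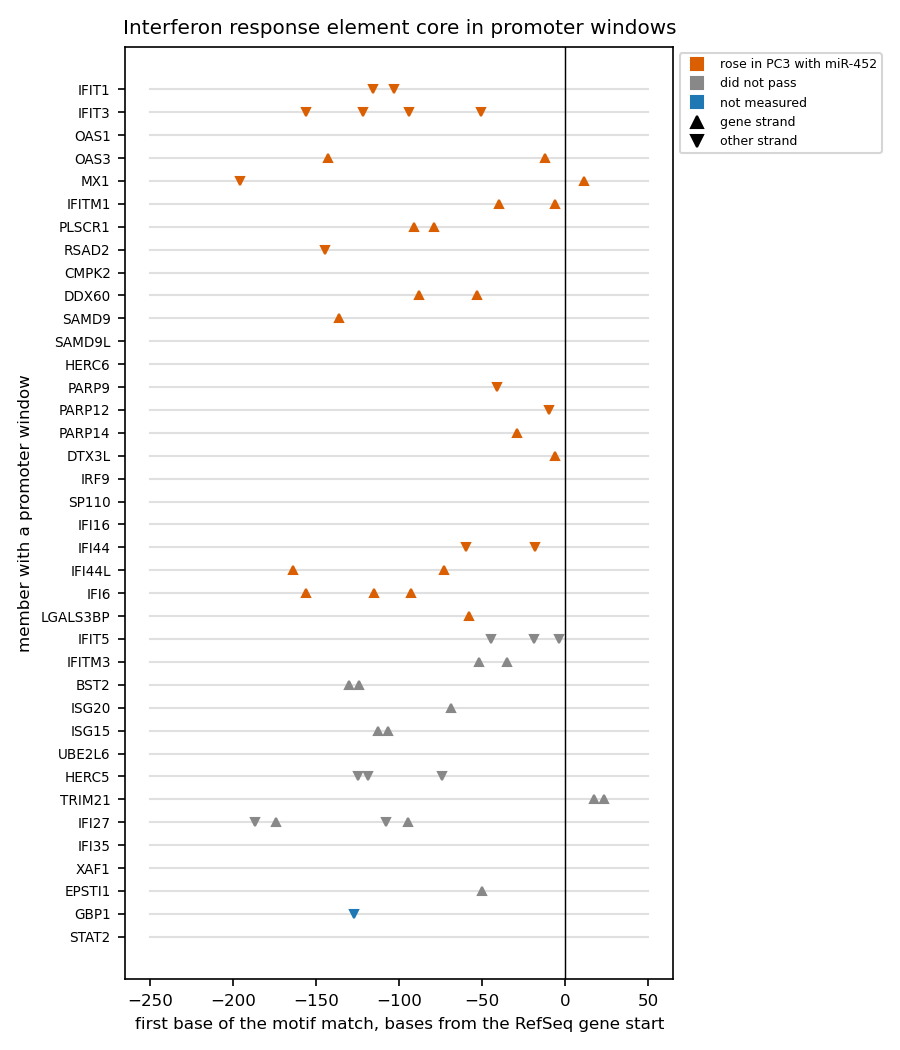
Positions of the ISRE core in the promoter windows of the 38 genes with a window, in bases from the RefSeq gene start (vertical line), with up triangles for the gene's strand and down triangles for the other strand. Orange marks genes that rose in PC3 with miR-452 over scrambled, grey those that did not pass and blue those not measured, and matches appear in 17 orange, 9 grey and 1 blue row.

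The genes that make and sense interferon were counted from lists of gene symbols. Of 16 interferon ligand genes 0 passed in PC3 with miR-452 over scrambled, and IFNB1, the first interferon most cells make, read 5.14 and 5.13 scrambled and 5.16 and 5.13 with miR-452. The ligand nearest to passing was IFNE (-0.43 ± 0.12, adjusted p = 0.0629). Against untransfected cells IFNL1 (0.35 ± 0.10) and IFNL2 (0.38 ± 0.12) were higher and IFNE lower (-0.73 ± 0.12). In DU145 IFNL2 and IFNL3, which are near-identical copies, were higher in all 3 transfected groups than in untransfected cells, by 0.65 ± 0.16, 0.49 ± 0.13 and 0.43 ± 0.13 for IFNL2 with the scrambled, miR-224 and miR-452 mimics. Of all genes, 2.6%, 5.44% and 8.31% were higher in these comparisons, which share the untransfected arrays. The ligand genes read from 4.59 to 8.77 over all arrays.

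Of 6 receptor genes, IFNAR2, a chain of the type I receptor, fell in PC3 with miR-452 over scrambled (-0.49 ± 0.09, adjusted p = 0.00942) while the set rose. It read 7.77 and 7.51 untransfected, 7.28 and 7.23 scrambled, 7.59 and 7.61 with miR-224, and 6.72 and 6.80 with miR-452. In DU145 IFNAR2 read 8.34 and 8.38, 7.87, 8.12 and 7.80, and 7.14 and 7.58, and fell with miR-452 against untransfected cells (-1.0 ± 0.15) but did not pass against the scrambled array (-0.52 ± 0.18). IFNAR1, the other chain, fell in DU145 with all 3 transfections, by 0.51 ± 0.11, 0.90 ± 0.09 and 0.35 ± 0.09. Of all genes, 9.22%, 15.5% and 19.9% were lower in these comparisons with untransfected cells. With miR-452 against miR-224 in DU145, IFNAR2 was lower and IFNAR1 higher (3.53% and 2.38% of all genes). In PC3 with miR-452 against untransfected cells, IFNAR1, IFNAR2 and the receptor gene IFNGR1 were lower, where 14.1% of all genes fell. Of 11 JAK, STAT and IRF genes, IRF7, which drives later interferon production, rose in PC3 with miR-452 over scrambled (0.37 ± 0.09, adjusted p = 0.0318). In that comparison 2.89% of all genes rose and 2.33% fell.

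Of 17 sensing genes 3 rose in PC3 with miR-452 over scrambled and 0 fell, where 2.89% of all genes rose and 2.33% fell. IFIH1, or MDA5, read 6.45 and 6.42 scrambled and 7.52 and 7.72 with miR-452 (1.18 ± 0.09, adjusted p = 6.46e-05). RIGI, which senses short double-stranded RNA with 5′ phosphates, read 8.32 and 8.21 against 8.99 and 8.92 (0.69 ± 0.08, adjusted p = 0.000538), and EIF2AK2, the kinase PKR, rose by 0.42 ± 0.10. Against untransfected cells 4 were higher, IFIH1 (0.89 ± 0.09), RIGI (0.46 ± 0.08), TLR3 (0.46 ± 0.11) and TLR9 (0.32 ± 0.08), and 2 lower, STING1 (-0.41 ± 0.08) and ADAR (-0.29 ± 0.10), where 8.12% of all genes were higher and 14.1% lower. EIF2AK2 did not pass there (0.17 ± 0.10). IFIH1 also rose with miR-224 over scrambled in PC3, at 6.91 and 6.90 on the miR-224 arrays and 6.83 and 6.63 untransfected. IFIH1 and ZC3HAV1 were the 2 sensing genes that rose in that comparison and 0 fell, where 12.1% of all genes rose and 4.65% fell. In DU145 RIGI read 7.99 and 7.89 untransfected and between 7.09 and 7.30 on all 5 transfected arrays, and fell in all 3 groups, by 0.82 ± 0.12, 0.74 ± 0.10 and 0.74 ± 0.10. These comparisons share the untransfected arrays. EIF2AK2 fell by 0.92 ± 0.16, 0.52 ± 0.13 and 0.55 ± 0.13 in the same order. The change of IFIH1 with miR-452 over scrambled differed between the lines by 0.94 ± 0.15 (adjusted p = 0.0122).

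Other lists are given for PC3 with miR-452 over scrambled, where 2.89% of all genes rose. TRAFD1 (0.41 ± 0.10) was 1 of 13 genes that restrain the response, PSMB9 (0.38 ± 0.10), a subunit of the immunoproteasome, 1 of 10 antigen presentation genes, and CD274 (0.70 ± 0.10), which encodes PD-L1, and TNFSF10 (0.29 ± 0.07), or TRAIL, 2 of 10 inducible cytokine and ligand genes. Each of these rose and 0 fell. Against untransfected cells CD274 was higher (0.64 ± 0.10), while TRAFD1 (0.10 ± 0.10), PSMB9 (0.28 ± 0.10) and TNFSF10 (0.20 ± 0.07) did not pass. B2M and ERAP1 of the antigen presentation list and CXCL8 and IL6 of the cytokine list were also higher there (8.12% of all genes). Over miR-224, TRAFD1, PSMB9, B2M, ERAP1, CXCL8, IL6 and TNFSF10 passed higher and CD274 did not pass (5.99% of all genes rose). CD274 read 6.33 and 6.16 scrambled and 6.98 and 6.90 with miR-452. It also rose with miR-224 over scrambled in PC3 (0.45 ± 0.10) and with miR-452 over untransfected cells in DU145 (0.87 ± 0.15). In DU145 it read 7.32 on the scrambled array and 7.80 and 8.35 with miR-452, and did not pass between these groups.

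The lines were checked against defining markers, as percentiles across genes, which also carry probe brightness. By the mean over all arrays of a line, the keratins KRT8 and KRT18 stood at percentiles 98.5 and 97 of all genes in PC3 and 99.8 and 99.1 in DU145, the pan-leukocyte gene PTPRC at 2.3 and 5.9, and the endothelial gene PECAM1 at 18.7 and 3.8. KLK3, the prostate-specific antigen of androgen-responsive cells, stood at 29.3 and 23.2. It was lower than the mean of the 5 measured genes of its luminal prostate list. That mean was 7.02 to 7.05 on the untransfected PC3 arrays, where KLK3 read 6.32 and 6.38. In untransfected DU145 cells it was 6.40 to 6.41, with KLK3 at 5.59 and 5.73. Not every marker outside the epithelial list was low. The fibroblast gene COL1A1 stood at 69.6 and 58.4, and CD68 of the leukocyte list at 90.1 and 93.4. PTPRC read 5.01 and 5.11 scrambled and 5.02 and 5.13 with miR-452 in PC3. Of 11 leukocyte markers CD68, also a lysosomal protein of other cells, rose there (0.63 ± 0.08, adjusted p = 0.000766), and the mean of the list was 6.38 to 6.41 on the scrambled arrays and 6.47 to 6.52 with miR-452. EPCAM (1.52 ± 0.13) and KRT7 (0.49 ± 0.09) rose among 9 epithelial markers, whose mean went from 9.05 to 9.15 on the scrambled arrays to 9.43 to 9.45 with miR-452, and their part in the result was not tested. Of 10 fibroblast and 8 endothelial markers 0 passed over scrambled, and COL1A2, COL3A1 and LUM among the fibroblast markers were higher than in untransfected cells.

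The genes outside all lists whose levels ran most like the mean of the set, over 15 arrays centred within each line, were VSIG1 (r = 0.96), AOX1 (0.91), TRAF3IP2 (0.90), DIAPH2-AS1 (0.90) and FHIP1A (0.90), as a description of arrays that share a line and a normalization. VSIG1 read 8.32 and 8.32 untransfected, 8.15 and 8.02 scrambled, 8.11 and 8.21 with miR-224, and 8.96 and 8.84 with miR-452 in PC3. Within PC3 its r was 0.98 and within DU145 0.87, whereas AOX1 had 0.97 and 0.31.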

How the data were processed

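Expression was read from the table of log2 levels that the authors deposited, 15 Affymetrix Human Gene 1.0 ST arrays (8 PC3, 7 DU145) processed with RMA16 in GeneSpring GX 11.0 per the submitters' processing notes, each line normalized separately per the series' design text. The offset that RMA16 adds before the log is not given in the sources used here and would shrink the changes of low genes. Of 28869 features, 19310 carry 1 gene symbol, 1752 several and 7807 none in the platform annotation, and features of a gene were averaged to 18377 genes (685 with over 1 feature). Values ran from 4.49 to 14.18. The number of arrays limits the precision.

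Each line was fitted alone in limma 3.58.1 (R 4.3.3, statmod 1.5.0) with 1 mean per group, lmFit and eBayes, two-sided, with Benjamini-Hochberg adjustment over all genes of a comparison and a threshold of 0.05. The lone DU145 scrambled array is assumed to vary like the other DU145 groups. Differences between lines came from all 15 arrays with 8 group means. The code was tested on simulated data. Array values are given for the 14 genes with the smallest p in PC3 miR-452 minus scrambled, the 10 with the smallest p in any DU145 comparison and the 3 with the highest level in untransfected cells of each line, and other genes are named where their group is described. The list of genes and the other lists were chosen with earlier results of these data known. Replicate letters were not used to pair the arrays in the main fit. Same-letter arrays of a line had deviations that correlated from -0.31 to 0.27 over genes, with 0.27 between PC3 scrambled and miR-452. With 2 arrays in a group their deviations mirror each other, so this check cannot tell whether a letter marks a shared batch. Alternatives were a fit of all arrays, a filter on low genes, quantile normalization, trend and robust moderation, 1 feature per gene, a block for the replicate letter, and leaving out each array in turn. Promoter and microRNA sequences are from RefSeq.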

Additional observations from a re-analysis of the deposited data

Results flagged for a closer look

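The change with miR-452 over the scrambled mimic was larger in PC3 than in DU145, by the test of the difference in limma, for 17 genes. In log2 units the difference was 1.91 for MX1, 1.63 for IFI44L, 1.57 for OAS1, 1.44 for IFITM1, 1.30 for OAS2, 1.16 for IFI44, 1.15 for SAMD9L and 1.14 for IFIT1. It was 0.91 for PLSCR1 and for PARP12, 0.89 for MX2, 0.87 for PARP9, 0.85 for LGALS3BP, 0.78 for OAS3, 0.77 for RSAD2, 0.64 for CMPK2 and 0.61 for IFIT3. None of the 17 passed with the replicate letters as a block, and of 20 alternatives IFIT3 lost its call in 17, OAS3 in 14, CMPK2 in 11, PARP9 in 9 and PARP12 in 7.

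Against untransfected cells, 10 genes rose in PC3 with miR-452 and fell in DU145, and the difference between lines passed for each. It was 1.82 for IFIT1, 1.75 for SAMD9, 1.36 for IFIT3, 1.05 for IFIT2, 1.00 for HERC6, 0.92 for PLSCR1, 0.90 for PARP14, 0.90 for DTX3L, 0.82 for OASL and 0.82 for PARP9. For scrambled against untransfected cells the difference was 1.02 for SAMD9 and 0.75 for IFIT3.

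Outside the features of a single gene, the feature shared by GBP1P1, GBP3 and GBP1 was higher by 0.67 and that of USP41P and USP18 by 0.71 in PC3 with miR-452 over scrambled.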

How the results depend on the processing

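The counts of genes passing within PC3 for miR-452 stayed within 1.5 times under each alternative except 1 array left out. No gene of the set that passed in a comparison reversed its direction there under any alternative. Reversals were counted only for genes that passed. The labels do not say what the letters mark. With the replicate letter as a block, in PC3 the count of 8 for miR-224 over scrambled became 2 and the 9 over untransfected became 5. In DU145 the block gave 7 for scrambled over untransfected, 0 for miR-224 and 0 for miR-452 over scrambled, 6 for miR-224 and 2 for miR-452 over untransfected, and 1 between the mimics. For the difference between lines it gave 0 over scrambled, 9 over untransfected, 9 over miR-224 and 0 for scrambled over untransfected. Of the DU145 calls over untransfected, the block left IFIT1, IFIT2, IFIT3, IFIT5, HERC6 and SAMD9 for miR-224 and IFIT1 and HERC5 for miR-452, and ended the others, among them PLSCR1 (-0.59) and DDX60 (-0.57) for miR-224 and PARP14 (-0.57), IFI35 (-0.61), IFIT2 and IFIT3 for miR-452. With the letters of DU145 miR-452 crossed, an alternative chosen after seeing the data, 0 passed for miR-224 and 0 for miR-452 over scrambled in DU145, and 0 for the difference between lines over scrambled and 0 for scrambled over untransfected, which gave 1 with quantile normalization. In DU145 the scrambled array carries letter b and the arrays of both microRNA mimics letters a and c. The block therefore links them only through the untransfected arrays b and c, and leaves little to measure the spread. These counts cannot tell whether a letter marks a shared batch, and the cause was not tested.

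With each array left out, the counts ran in PC3 from 0 to 8 for scrambled over untransfected, 2 to 9 for miR-224 over scrambled, 24 to 28 for miR-452 over scrambled, 2 to 9 and 20 to 33 over untransfected, and 24 to 29 between the mimics. In DU145 they ran in that order from 0 to 18, 0 to 2, 0 to 1, 7 to 25, 6 to 22 and 0 to 6. Between lines they ran from 8 to 18 over scrambled, 22 to 31 over untransfected, 15 to 21 over miR-224 and 0 to 3 for scrambled over untransfected. Leaving out the DU145 scrambled array ends its comparisons. Few arrays and an unknown offset limit small changes of low genes.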
